A study of Arabidopsis thaliana with 8 samples.

Results

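The HD-ZIP III genes and their LITTLE ZIPPER partners were followed in Arabidopsis thaliana embryos on 2-colour long-oligonucleotide arrays. The set held 8 genes, taken by gene code from the gene model column of each array's table. It comprised the 5 HD-ZIP III genes ATHB8 (AT4G32880), ATHB15 (AT1G52150), PHABULOSA (PHB, AT2G34710), PHAVOLUTA (PHV, AT1G30490) and REVOLUTA (REV, AT5G60690), and the 3 LITTLE ZIPPER genes ZPR1 (AT2G45450), ZPR2 (AT3G60890) and ZPR3 (AT3G52770). All 8 were among the 24723 genes and microRNA reporters on the arrays and among the 19762 that were tested. ATHB15 was read by 3 reporters (spotted oligonucleotides) and the other genes by 1 reporter each.

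HD-ZIP III proteins are plant transcription factors with a homeodomain, a leucine zipper and a lipid-binding-type START domain. They specify the upper (adaxial) side of cotyledons and leaves, keep the shoot apex active and pattern vascular tissue, and their transcripts are cut under the guidance of the microRNAs miR165 and miR166. LITTLE ZIPPER proteins consist of little more than a leucine zipper, pair with HD-ZIP III proteins and keep them from binding DNA, and HD-ZIP III activity in turn raises ZPR transcripts. In the embryo, auxin acting through the response factor MONOPTEROS (MP) is known to promote vascular and cotyledon genes, and the Aux/IAA protein BODENLOS (BDL) blocks MP.

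Each array held RNA of Q0990 x bdl embryos in one dye and RNA of Q0990 x Col-0 embryos in the other. Q0990 was the seed parent of both crosses, Col-0 is the wild-type accession that the labels name as ecotype, and embryos were collected at 3 or 6 days, counted from pollination in the protocols and from fertilization in the series text. Q0990 is known as a GAL4 driver line active in the inner, provascular cells of the embryo, so all embryos carried the driver. The pollen parent is given only as bdl, the name of a stabilized form of BDL. There were 4 arrays per day, described as biological replicates. The BDL transcript, whose reporters may read the introduced and the endogenous form, rose in Q0990 x bdl 1.82-fold on day 3 (adjusted p = 2.68e-05) and 2.03-fold on day 6 (adjusted p = 1.43e-05).

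Median intensities per channel lay between 336 and 524 on the day 3 arrays and between 225 and 451 on the day 6 arrays. According to the labels, replicates 1 and 2 of each day carried Q0990 x bdl in Cy5 and replicates 3 and 4 in Cy3. The values went against this pairing. The first component of the arrays' deviations from their day means, with 40% of the variance, set day 3 replicates 1 and 3 and day 6 replicates 2 and 4 against the other 4 arrays. Within a day, deviations of arrays with the same labelled dye correlated at r = -0.59 to -0.47. Arrays with opposite labelled dyes gave r = -0.59 to 0.22, and arrays on the same side of the component r = -0.16 to 0.22. Deviations from a mean of 4 arrays correlate negatively on average, and the sides were defined from these deviations. Arrays on the same side were thus bound to correlate more highly. Results are therefore given with the dye term from the labels, and where the array sides in its place alter a call or a count on day 3, on day 6 or in the difference between days for the 8 genes, or a count over a list on day 3 or day 6, that is given too. For the 8 genes the effect sizes are the same under both, since each day holds both orientations equally. The array sides were taken from these same ratios, so a dye term built on them removes much of their spread by construction. Adjusted p-values with the array sides are therefore likely too small and are no independent evidence. Over all features the number called rose with them from 8035 to 9860 on day 3 and from 6942 to 9152 on day 6.

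The embryo label was compared with marker genes. Of 7 embryo markers, 5 were tested on day 3, and the protoderm gene PDF1 and the embryo regulators FUS3 and LEC1 lay above the blank level (the 95th percentile of an array's blank spots, per channel) in all signals of both days. WOX2 and WOX9 had no value on the day 3 arrays, and WOX2 was under the blank level in all day 6 signals. Endosperm and seed coat markers were present too. On day 3 the summed intensity of endosperm markers was 7865 to 14517 in Q0990 x bdl and 4572 to 8788 in Q0990 x Col-0, and that of seed coat markers 72772 to 138565 against 55280 to 81757, while that of embryo markers was 41733 to 61558 against 70874 to 89695. On day 3, 8 of 9 endosperm markers and 9 of 14 seed coat markers were called higher in Q0990 x bdl, and 4 of 5 embryo markers lower. On day 6, 3 of 8 endosperm and 3 of 6 embryo markers were called higher, and of 14 seed coat markers 2 were called higher and 2 lower. Under the array sides FIS2 was also called lower on day 3, and on day 6 AGL62 lower (both endosperm markers) and the embryo marker WOX9 higher. The part of these tissues in the results below was not tested. In such whole samples, fewer cells of a type and less RNA per cell cannot be told apart.

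On day 3, PHB, PHV and ATHB15 fell in Q0990 x bdl, and no gene of the set was called higher. A ratio here is the log2 intensity of Q0990 x bdl relative to that of Q0990 x Col-0, after 50 units were added to all intensities and each array was smoothed by loess. Calls required a limma p below 0.05 after adjustment over all features tested. The offset makes folds of dim genes too small. Of the 8 genes, 3 were called lower and 0 higher, and 5 had an unadjusted p below 0.05. In the same comparison 20.9% of the 19128 features tested were called lower and 21.1% higher. The median ratio was -0.29 over the 8 genes and 0.003 over all features.

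PHB, which specifies adaxial cells and shares this role with PHV, gave intensities of 1440, 282, 2041 and 1756 in Q0990 x bdl on replicates 1 to 4, against 3098, 384, 4519 and 3639 in Q0990 x Col-0. Replicate 2 was low in both channels, and apart from it every Q0990 x bdl value lay below every Q0990 x Col-0 value. The ratios were -1.08, -0.37, -1.13 and -1.04. PHB was thus 1.87-fold lower (log2 -0.91, SE 0.107, 95% interval -1.15 to -0.66, n = 4 arrays, adjusted p = 0.000346). Without replicate 2 the log2 value was -1.08 (adjusted p = 0.000111). Only 0.523% of all features had a lower value.

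PHV gave intensities of 207, 331, 469 and 325 in Q0990 x bdl and of 353, 605, 833 and 604 in Q0990 x Col-0. The Q0990 x Col-0 value was the higher on each array, although the ranges of both crosses overlapped between arrays. The ratios of -0.65, -0.77, -0.77 and -0.79 were close to each other, and PHV was 1.68-fold lower (log2 -0.75, SE 0.0563, 95% interval -0.88 to -0.62, n = 4, adjusted p = 4.65e-05). The calls of PHB and PHV on day 3 were kept in all 19 alternative settings tried.

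ATHB15, which with PHB and PHV acts in the shoot apex and also in vascular tissue, gave ratios of -0.26, -0.51, -0.22 and -0.47. Its mean intensities over 3 reporters were 133, 77.7, 184 and 193 in Q0990 x bdl and 168, 130, 226 and 291 in Q0990 x Col-0, lower in Q0990 x bdl on 4 of 4 arrays. It was 1.29-fold lower (log2 -0.37, SE 0.0603, adjusted p = 0.00179). Its reporters had mean ratios of -0.51, -0.28 and -0.30, all of one sign.

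REV, a promoter of shoot meristem and vascular development, gave ratios below 0 on all 4 day 3 arrays, at -0.29, -0.05, -0.26 and -0.01. It did not pass the test with the labelled dyes (log2 -0.15, adjusted p = 0.103) and passed it with the array sides (adjusted p = 0.0229), under which replicates 1 and 3 and replicates 2 and 4 form pairs. ATHB8, a gene of procambium cells that MP is known to activate directly, gave -0.03, -0.37, 0.15 and -0.38. These ratios had both signs, and ATHB8 was not called (log2 -0.16, 95% interval -0.40 to 0.09, adjusted p = 0.282). With the array sides its adjusted p was 0.0611.

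Among the LITTLE ZIPPER genes, ZPR2 was above the blank level in all signals. Its ratios of 0.44, 0.05, 0.61 and 0.11 were above 0 on all 4 arrays, with a mean of 0.30. The test with the labelled dyes gave an adjusted p of 0.0768 and that with the array sides 0.000564, again with replicates 1 and 3 apart from replicates 2 and 4. ZPR1 (0.10, -0.31, -0.30 and -0.57) and ZPR3 (-0.26, -0.20, 0.04 and -0.84) were not called, with adjusted p of 0.233 and 0.0975. Both were dim: for each gene 1 of 4 Q0990 x bdl signals and 2 of 4 Q0990 x Col-0 signals were above the blank level. With the array sides, 5 of the 8 genes were called on day 3, 4 lower and 1 higher, against 51.5% of all features.

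**Figure D1:**
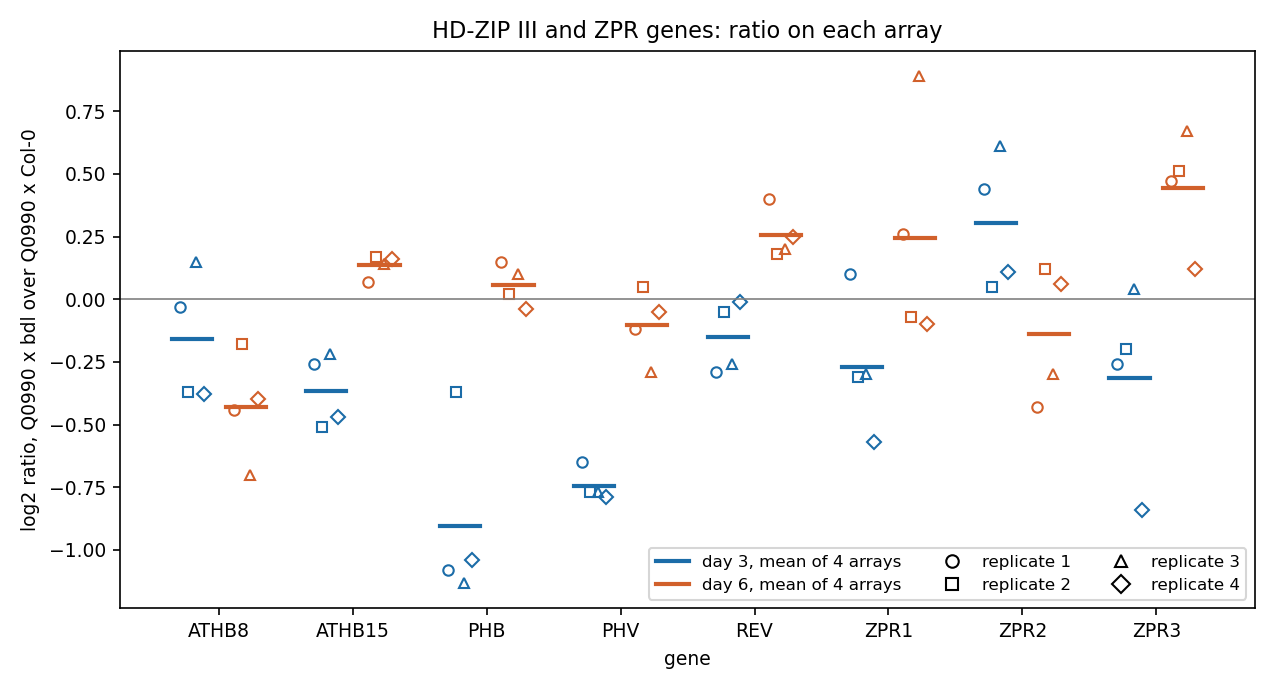
Log2 ratio of Q0990 x bdl to Q0990 x Col-0 (vertical axis) of each gene on each array, day 3 in blue and day 6 in orange, with replicates as symbols and the mean of 4 arrays as a bar. PHV lay between -0.79 and -0.65 on day 3 and between -0.29 and 0.05 on day 6, and PHB replicate 2 of day 3 (-0.37) stood apart from the other 3 arrays.

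By day 6 PHB and PHV no longer differed detectably between the crosses, and the called genes were others. ATHB8 fell in Q0990 x bdl, and REV and ZPR3 rose. So 2 of 8 genes were called higher and 1 lower, where 16.2% of the 19505 features tested were called higher and 19.4% lower. Each of these 3 calls depended on single arrays, and none reached 1.5-fold.

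ATHB8 gave intensities of 107, 169, 152 and 226 in Q0990 x bdl and of 162, 197, 276 and 312 in Q0990 x Col-0. The ratios of -0.44, -0.18, -0.70 and -0.40 were below 0 on 4 of 4 arrays, and ATHB8 was 1.34-fold lower (log2 -0.43, SE 0.108, 95% interval -0.68 to -0.18, adjusted p = 0.0165). Above the blank level were 3 of 4 Q0990 x bdl signals and 2 of 4 Q0990 x Col-0 signals. The call ended without replicate 1 (adjusted p = 0.0716) or replicate 3 (adjusted p = 0.0895).

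REV gave intensities of 377, 653, 185 and 573 in Q0990 x bdl and of 271, 565, 153 and 470 in Q0990 x Col-0, the higher value being that of Q0990 x bdl on every array. Its ratios were 0.40, 0.18, 0.20 and 0.25, and it was 1.2-fold higher (log2 0.26, SE 0.0664, adjusted p = 0.0178). Leaving out replicate 1, 3 or 4 gave adjusted p of 0.09, 0.0539 and 0.0662. ZPR3 gave ratios of 0.47, 0.51, 0.67 and 0.12 and was 1.36-fold higher (log2 0.44, SE 0.135, adjusted p = 0.0348). Of its signals, 2 of 4 for Q0990 x bdl and 1 of 4 for Q0990 x Col-0 were above the blank level. The ZPR3 call ended without replicate 1, 2 or 3 (adjusted p = 0.0987, 0.0971 and 0.166), and with no offset the log2 value was 0.84 with an adjusted p of 0.171.

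PHB had intensities of 7699, 3568, 3321 and 3918 in Q0990 x bdl on day 6 and of 6707, 3540, 3043 and 4025 in Q0990 x Col-0. Its ratios of 0.15, 0.02, 0.10 and -0.04 lay on both sides of 0 (log2 0.06, 95% interval -0.19 to 0.30, adjusted p = 0.707). PHV gave -0.12, 0.05, -0.29 and -0.05 (log2 -0.10, 95% interval -0.23 to 0.03, adjusted p = 0.198). ATHB15 gave ratios above 0 on all 4 arrays, at 0.07, 0.17, 0.14 and 0.16, which passed with the array sides (adjusted p = 0.0248) but not with the labelled dyes (adjusted p = 0.116). Each ATHB15 reporter had at most 2 of 4 Q0990 x Col-0 signals above the blank level that day.

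ZPR1 gave 0.26, -0.07, 0.89 and -0.10 on day 6 and was not called (log2 0.25, adjusted p = 0.293). Replicate 3 carried most of this mean, and without it the log2 value was -0.02. ZPR2 gave -0.43, 0.12, -0.30 and 0.06, again in pairs by array side, with adjusted p of 0.416 and, with the array sides, 0.0274. With the array sides 5 of 8 genes were called on day 6, 3 higher and 2 lower, against 46.9% of all features.

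The effect of the cross differed between days for PHB, PHV, ATHB15, REV and ZPR3, each with a more positive ratio on day 6. Of the 8 genes, 5 were called with a higher day 6 effect and 0 with a lower one, where 19.4% and 21.7% of the 18871 features on both days were so called. The difference of the log2 effects, day 6 minus day 3, was 0.97 for PHB (SE 0.152, adjusted p = 0.00158) and 0.65 for PHV (SE 0.0797, adjusted p = 0.000513). It was 0.76 for ZPR3 (adjusted p = 0.0142), 0.50 for ATHB15 (adjusted p = 0.00229) and 0.41 for REV (adjusted p = 0.00927). With the brightest of its 3 reporters alone, ATHB15 missed the threshold (0.41, adjusted p = 0.0506). The median over the 8 genes was 0.51 and that over all features -0.013. Of the embryo markers, 4 of 5 were called with a higher day 6 effect and 0 with a lower one (median 0.68). For endosperm markers 5 of 8 were called lower and 0 higher (median -0.52), and for seed coat markers 6 of 14 and 0 (median -0.29). The part of these tissues in the differences was not tested. These differences use the same arrays as the effects of each day.

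ATHB8 and ZPR2 had differences of the other sign, -0.27 and -0.44. Neither passed with the labelled dyes (adjusted p = 0.191 and 0.0709), and both passed with the array sides (adjusted p = 0.0296 and 0.000523), so that 7 of 8 genes were then called, against 51.4% of all features. ZPR2 also passed without day 6 replicate 2 (log2 -0.56, adjusted p = 0.0389). ZPR1 had a difference of 0.52 (95% interval -0.03 to 1.06) and passed under neither.

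**Figure D2:**
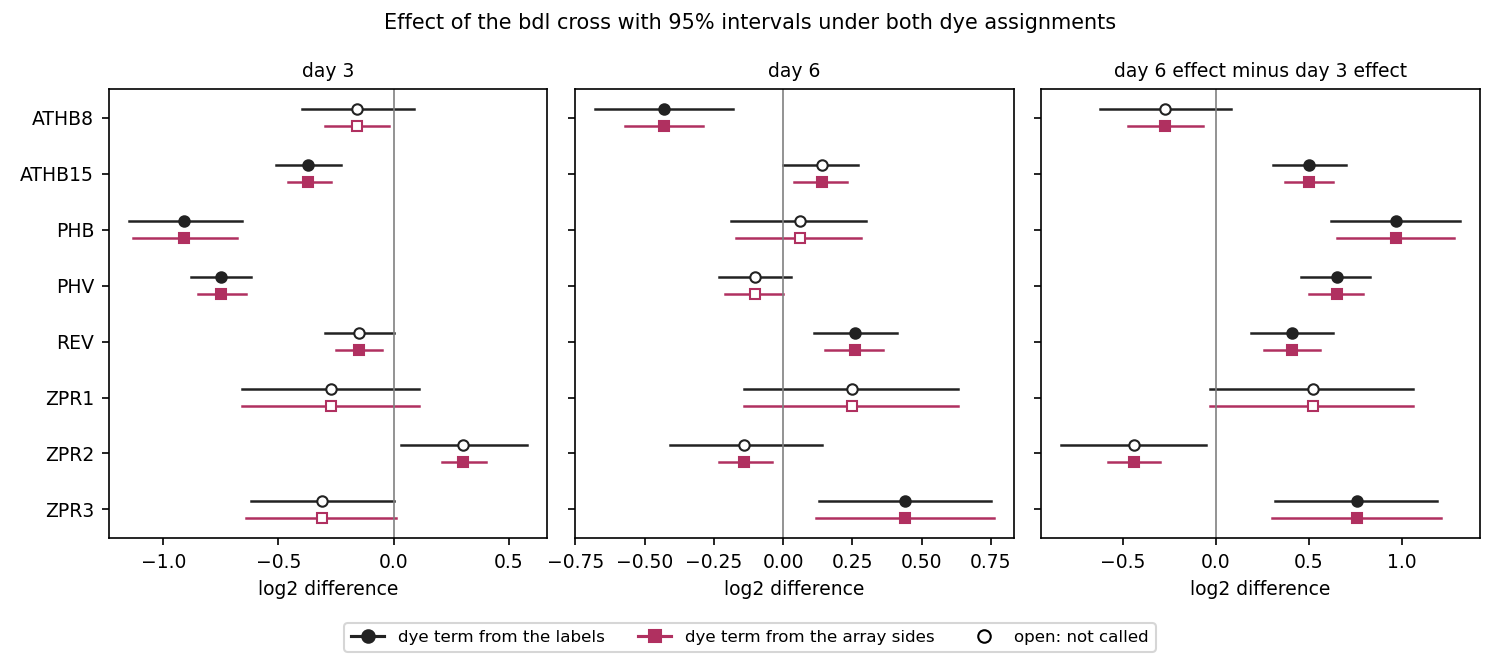
Log2 effect of the bdl cross (horizontal axis) with its 95% interval on day 3, on day 6 and as the day 6 effect minus the day 3 effect, with the dye term from the labels (black circles) and from the array sides (red squares), filled where called. PHB, PHV and ATHB15 were called lower on day 3 under both, and ZPR2 was called with the array sides but not with the labels.

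Signals of each cross were then compared between days. Since the days never met on one array, the comparison was made between arrays, with limma's separate-channel model on signals normalized over all arrays. The normalized log2 signal of PHB in Q0990 x Col-0 was 11.06 ± 1.37 (SD, n = 4) on day 3 and 12.17 ± 0.231 on day 6, and in Q0990 x bdl 10.15 ± 1.01 and 12.23 ± 0.192. PHB was lowest in Q0990 x bdl of day 3, followed by Q0990 x Col-0 of day 3, whose values overlapped, and then by both crosses of day 6, which overlapped each other but not the day 3 groups. PHV had the same order for day 3, from 8.49 ± 0.338 in Q0990 x bdl to 9.23 ± 0.390 in Q0990 x Col-0, while on day 6 Q0990 x bdl (9.66 ± 0.327) and Q0990 x Col-0 (9.77 ± 0.415) were close. Neighbours in this order overlapped throughout.

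Mean signals of ATHB15 increased in the order Q0990 x bdl of day 3 (7.58 ± 0.210), Q0990 x Col-0 of day 3 (7.95 ± 0.257), Q0990 x Col-0 of day 6 (8.26 ± 0.513) and Q0990 x bdl of day 6 (8.40 ± 0.473), each overlapping the next. REV showed the same order of means, from 8.48 to 8.90, and an SD of 0.953 in Q0990 x Col-0 and 0.901 in Q0990 x bdl on day 6. Within each cross its day 6 replicates 2 and 4 lay above replicates 1 and 3. ATHB8 ran from 7.75 ± 0.486 in Q0990 x bdl of day 6 to 8.18 ± 0.482 in Q0990 x Col-0 of day 6, with all neighbours overlapping.

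ZPR1 had 6.61 ± 0.186 in Q0990 x bdl and 6.88 ± 0.162 in Q0990 x Col-0 on day 3, and 8.28 ± 0.544 and 8.04 ± 0.545 on day 6, with no overlap between the days. ZPR2 was lowest in Q0990 x Col-0 of day 3 (10.22 ± 0.145) and highest in Q0990 x Col-0 of day 6 (10.99 ± 0.639), and neighbours overlapped. ZPR3 ran from 6.06 ± 0.30 in Q0990 x bdl of day 3 to 6.92 ± 0.328 in Q0990 x bdl of day 6, also with overlap between neighbours. Signals of different reporters are not comparable in level.

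**Figure D3:**
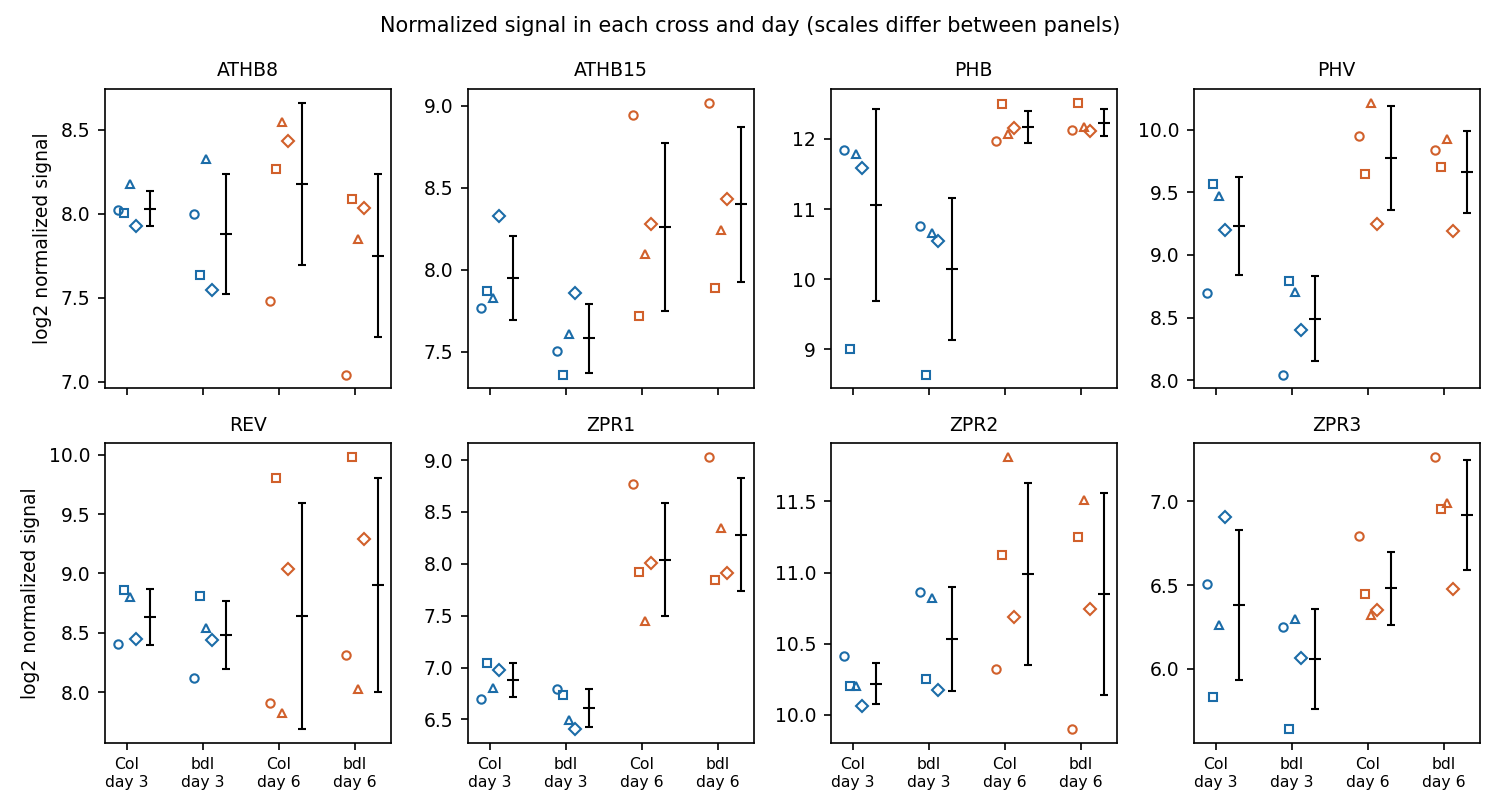
Normalized log2 signal of each gene (vertical axis, own scale per panel) in both crosses on both days, with arrays as symbols and the mean ± SD of 4 arrays at the right of each group. ZPR1 and PHB had higher signals on every day 6 array than on any day 3 array, and PHB replicate 2 of day 3 lay far below the other arrays in both crosses. Only 7 of the 16 ZPR1 signals were above the blank level, which reached 87.5 on day 3 and 366 on day 6.

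In Q0990 x bdl embryos 4 of the 8 genes rose from day 3 to day 6, namely PHB, PHV, ZPR1 and ATHB15, and 0 fell. Of the 18871 features, 16.5% rose and 15.3% fell. PHB rose 4.23-fold (log2 2.08, 95% interval 0.99 to 3.17, adjusted p = 0.00536), and without day 3 replicate 2 by a log2 value of 1.57 (adjusted p = 0.000142). PHV rose 2.26-fold (log2 1.18, adjusted p = 0.00259), ZPR1 3.19-fold (log2 1.67, adjusted p = 0.0293) and ATHB15 1.76-fold (log2 0.82, adjusted p = 0.0325). The ATHB15 call ended without day 3 replicate 1, 2 or 3 or day 6 replicate 1 or 4, where the adjusted p lay between 0.0696 and 0.0968, and with the brightest of its reporters alone (log2 1.01, adjusted p = 0.0604). The ZPR1 call ended without day 3 replicate 2, 3 or 4 or day 6 replicate 1 (adjusted p between 0.0624 and 0.104), and with the array sides, where 3 genes were called (adjusted p = 0.0699). Of the ZPR1 signals in Q0990 x bdl, 1 of 4 on day 3 and 3 of 4 on day 6 were above the blank level. That level itself lay between 27.4 and 87.5 on the day 3 arrays and between 68.4 and 366 on the day 6 arrays. Its part in the rise of dim genes was not tested.

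In Q0990 x Col-0 embryos 0 of 8 genes were called with age by limma, where 14.3% of features rose and 12.5% fell, and 1 gene had an unadjusted p below 0.05. That gene was PHB (log2 1.12, 95% interval 0.03 to 2.21, adjusted p = 0.121), whose value fell to 0.43 without day 3 replicate 2. ZPR1 had a log2 value of 1.16 (adjusted p = 0.136) and was called without day 6 replicate 3 (log2 1.40, adjusted p = 0.0141). Its Q0990 x Col-0 signals were above the blank level on 2 of 4 arrays of day 3 and 1 of 4 of day 6. The intervals of the other genes held 0 and were wide, as that of REV shows (-0.79 to 0.82). Without a filter on dim reporters 4 genes were called in Q0990 x Col-0, but 37.6% of 19650 features were then called in either direction, against 26.8% of 18871, and the median of all features was 0.43 in place of 0.09. The age changes of both crosses come from the same arrays as the ratios, and the test of their difference is the difference between days given above.

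**Figure D4:**
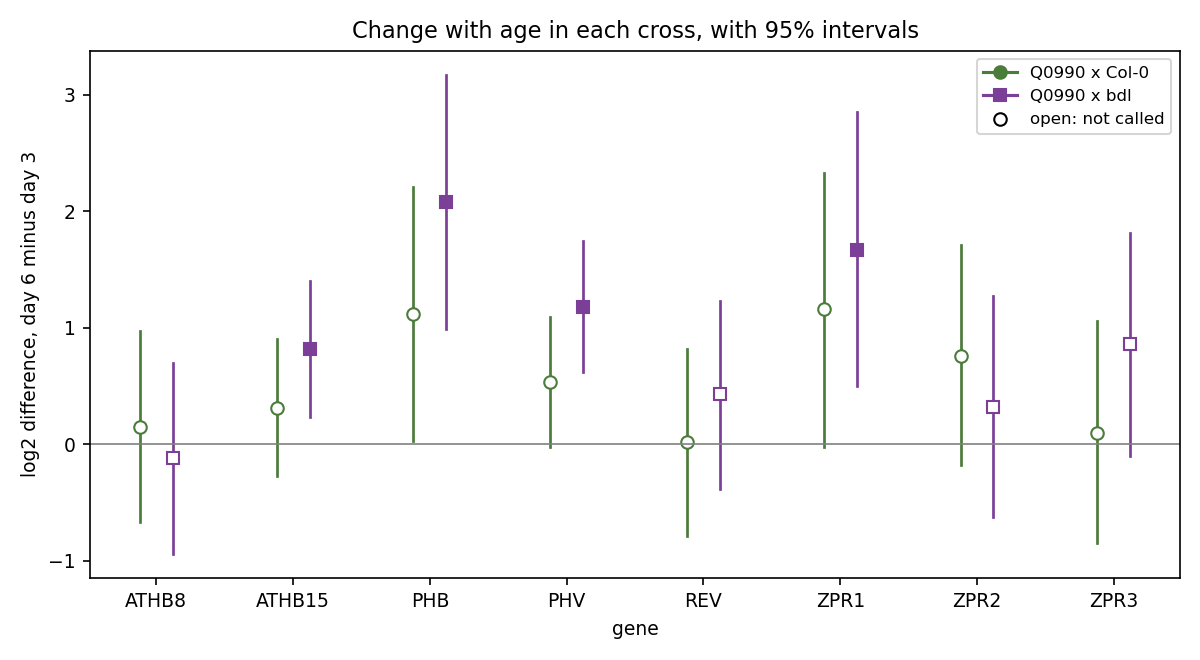
Log2 difference between day 6 and day 3 (vertical axis) of each gene in Q0990 x Col-0 (green circles) and Q0990 x bdl (purple squares), with 95% intervals, filled where called. ATHB15, PHB, PHV and ZPR1 were called in Q0990 x bdl, and no gene was called in Q0990 x Col-0.

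Genes that act with the HD-ZIP III pathway were taken from lists of known partners. Counts over these lists use the labelled dyes unless the array sides are named, and are to be read against all features, of which 20.9% were called lower and 21.1% higher on day 3, and 19.4% lower and 16.2% higher on day 6. The small RNA list held AGO10, which binds miR165 and miR166 and so shields HD-ZIP III transcripts, together with the general microRNA machinery and the stem-loop reporters of the miR165 and miR166 genes. Of its 15 members 11 were tested, and on day 3, 3 were called lower and 0 higher, with a median of -0.10. AGO10 was 2.07-fold lower (log2 -1.05, SE 0.082, adjusted p = 5.37e-05), AGO1, the slicer that these microRNAs guide, 1.17-fold lower (adjusted p = 0.00728), and the MIR166a reporter 1.2-fold lower (adjusted p = 0.027). On day 6 AGO10 was at -0.14 (adjusted p = 0.228), and its effect differed between days by 0.91 (adjusted p = 0.000591). The stem-loops of this family resemble each other, so that the reporters may share signal. SE, a microRNA processing gene, was 1.15-fold higher on day 6 (adjusted p = 0.0382), the 1 gene of the 11 called that day with the labelled dyes. With the array sides, 4 were called lower and 1 higher on day 3, and 2 lower and 3 higher on day 6, the added calls being HYL1 and MIR166f on both days and MIR165b and MIR166e on day 6.

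HD-ZIP II genes encode related repressors, some of which HD-ZIP III proteins activate. On day 3, 2 of 7 tested were called lower and 1 higher. HAT3, which acts in cotyledon polarity with HD-ZIP III genes, was 1.81-fold lower (log2 -0.86, adjusted p = 5.11e-05) and was not among the genes called on day 6. ATHB2, a shade-response gene of this family, was 1.70-fold lower on day 6 (log2 -0.77, adjusted p = 0.00131), the 1 gene of 7 called that day. The array sides gave the same counts on both days.

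Abaxial regulators specify the lower side of lateral organs, against HD-ZIP III genes. On day 3, 4 of 6 tested were called lower and 1 higher (median -0.33), and on day 6, 5 of 7 were called higher and 0 lower (median 0.28). FIL, a YABBY gene, was 1.97-fold lower on day 3 and 1.41-fold higher on day 6, with adjusted p of 1.69e-05 and 0.000369. KAN2, a KANADI gene, was 1.70-fold lower and then 1.21-fold higher (adjusted p = 9.40e-05 and 0.0148), with 1 of 4 Q0990 x Col-0 signals above the blank level on day 6. These differences between days, 1.47 for FIL and 1.04 for KAN2, were called, with adjusted p of 1.60e-05 and 0.000137. YAB3, which had no value on the day 3 arrays, was 1.77-fold higher on day 6 (adjusted p = 0.00113). KAN3 was also called higher on day 6 with the array sides.

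Of 14 auxin and vascular partners, 8 were called lower and 1 higher on day 3 (median -0.50), and 5 lower and 2 higher on day 6 (median -0.05). The 1 gene called higher on day 3 was BDL. Among the genes called lower on day 6, BUD2 and SHR were dim. BUD2 had 0 of 4 Q0990 x bdl signals and 1 of 4 Q0990 x Col-0 signals above the blank level that day, and SHR 1 of 4 in each cross. Under the array sides the day 3 counts were the same, and on day 6, 6 were called lower and 3 higher, with SCR and TMO5 added. TAA1, an auxin synthesis gene, was 2.27-fold lower on day 3 (log2 -1.18, adjusted p = 0.000129) and SCR, a ground tissue regulator, 1.93-fold lower (log2 -0.95, adjusted p = 4.01e-05). The cytokinin inhibitor AHP6 was 3.66-fold lower on day 6 (log2 -1.87, adjusted p = 5.91e-07). ACL5, a thermospermine synthase gene of xylem cells and known to act with ATHB8, was 1.95-fold lower on day 6 (log2 -0.97, adjusted p = 0.000522).

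Of 11 shoot apex and cotyledon partners, 8 were called lower and 1 higher on day 3 (median -0.38), and 7 higher and 1 lower on day 6 (median 0.21). The boundary genes CUC1 and CUC3 were each 2.19-fold lower on day 3 (adjusted p = 0.000167 and 3.60e-05), and DRN, whose protein is known to bind HD-ZIP III proteins, was 1.62-fold lower (adjusted p = 0.00119). CUC1 was 1.58-fold higher on day 6 (log2 0.66, adjusted p = 0.0031), a difference between days of 1.80 (adjusted p = 0.000125). The stem cell signal gene CLV3 was 1.44-fold lower on day 6 (adjusted p = 0.000803). The array sides added AS2, called lower on day 3 (adjusted p = 0.0131), and WUS, called lower on day 6 (adjusted p = 0.00622). These lists share the arrays and the marker values given above with the HD-ZIP III genes.

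**Figure D5:**
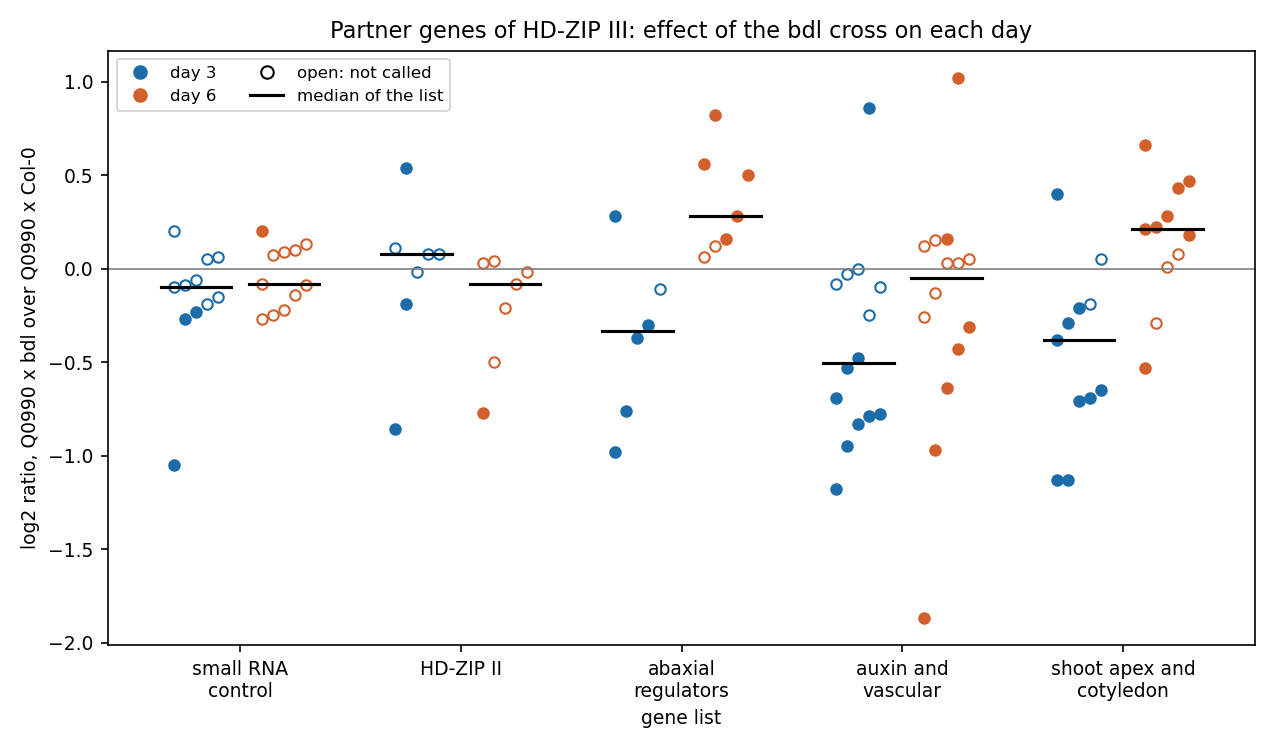
Log2 ratio of Q0990 x bdl to Q0990 x Col-0 (vertical axis) of each tested gene in 5 partner lists, day 3 in blue and day 6 in orange, filled where called, with the median of each list as a bar. The medians of the abaxial list (-0.33 and 0.28) and of the shoot apex and cotyledon list (-0.38 and 0.21) lay below 0 on day 3 and above 0 on day 6.

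For each gene the 2 features with the most similar course over the 16 channel signals were taken from 9656 or 9657 features above the blank level in all 16. The measure was Pearson's r of normalized log2 signals, and signals of one array share spots and hybridization. PHB was most like AT2G31920 (r = 0.973) and AT3G29300 (r = 0.947), PHV like SRF7 (r = 0.948) and ACS10 (r = 0.937), and REV like PDIL5-4 (r = 0.974) and AT5G50630 (r = 0.958). ATHB15 was most like AT5G11560 and CCS52A2, both at r = 0.962, and ATHB8 like AT1G15610 (r = 0.905) and AT1G64540 (r = 0.886). ZPR1 was most like AT5G13980 (r = 0.962) and AT1G31310 (r = 0.958), ZPR2 like AT2G46780 (r = 0.925) and AT5G52450 (r = 0.919), and ZPR3 like AT2G02170 (r = 0.868) and AT2G05140 (r = 0.860). ZPR1 and ZPR3 themselves were above the blank level in only 7 and 6 of the 16 signals, so their courses rest largely on values near that level.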

How the data were processed

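For each of the 8 arrays the authors deposited spot intensities of both channels, without background or flag columns. RNA was amplified and then dye-coupled, per the labels' protocols, and image software, background method and normalization are not given in the sources used here. The deposited intensities came as a workbook of 8 sheets, whose column headers name the crosses.

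In R 4.3.3 with limma 3.58.1 and statmod 1.5.0, an offset of 50 was added, log2 ratios were normalized by loess (span 0.3, 4 iterations), and a reporter was kept if at least 4 of its 16 signals were above the blank level, which is the 95th percentile of 1743 blank spots. This kept 22012 of 27462 reporters. Reporters of a gene were averaged. lmFit and eBayes fitted day 3, day 6 and dye effects on all 8 arrays, with at least 3 arrays per day. Changes with age used lmscFit after Aquantile normalization (intraspot correlation 0.946). P-values were adjusted by Benjamini-Hochberg over all features. Where a feature was under the blank level on every array of a group, its fold is a lower bound ("at least"), taken per array against its own signal or the dimmest signal over the blank level, whichever was higher. The number of arrays limits the precision, and p-values measure the spread between these arrays.

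The 8 genes and the partner and marker lists were chosen with earlier results of these data known. Examples from a list were taken, per comparison, from up to 4 called genes with the largest absolute log2 value. Other list genes were named for their detection, their value on the other day or a call added by the array sides. The fits were tested on simulated data with independent noise and a dye effect that followed the labels. The component that went against the labels was not part of that simulation, so it does not show how the fits behave with it. Across days, deviations of arrays with the same replicate number correlated at r = -0.26 to -0.15. Each such pair lay on opposite sides of the component, so these values cannot show whether the numbers pair arrays. Names of 92 of 93 list genes were found in the TAIR10.1 gene table as symbol or synonym. The features tested included 33 microRNA reporters. Promoter sequences and the deposited table of ratios were not analysed here.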

Additional observations from a re-analysis of the deposited data

Results flagged for a closer look

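Each group of 4 arrays was searched for a single array whose gap to its nearest neighbour took up most of the group's range. Of 48 groups, 5 held such an array, and chance gives about 1 in 20. The groups are not independent, since each gene and day entered as a ratio and as the signals of both crosses. The same spot can therefore be flagged repeatedly, as PHB was, so the 5 are not separate events. PHB on day 3 replicate 2 stood apart in its ratio (-0.37) and in its normalized log2 signal in Q0990 x bdl (8.64) and in Q0990 x Col-0 (9.01). On that array the intensities before normalization of REV (323 and 340) and PHV (331 and 605) lay within the range of the other day 3 arrays. Those of ATHB8 (105 and 151), ATHB15 (77.7 and 130), ZPR2 (1039 and 1008) and ZPR3 (1.73 and 2.45) were the lowest of day 3 in both channels. ZPR1 was lowest there in Q0990 x Col-0 only (50.4). The array also had the lowest median intensities of day 3 (341 and 336). On day 6 replicate 2 the PHB signal in Q0990 x bdl was high (12.52). PHV had its least negative day 3 ratio on replicate 1 (-0.65), apart from the other 3 arrays, which lay within 0.02 of each other.

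For 5 genes the cross had a different effect on each day, by the test of that difference. The day 6 effect minus the day 3 effect was 0.97 for PHB, 0.76 for ZPR3, 0.65 for PHV, 0.50 for ATHB15 and 0.41 for REV on the log2 scale.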

How the results depend on the processing

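Depth is not recorded for arrays, and of 16 signals 7 of ZPR1, 6 of ZPR3 and 13 of ATHB8 were above the blank level. The ATHB15 reporters had 14, 12 and 14 of 16 above it. Over 716 comparisons of a gene with an alternative setting, 662 kept direction and side of the threshold, 22 lost a call, 16 gained one and 16 changed sign, all 16 without a call. With the array sides as dye term, 5 genes were called on day 3 and 5 on day 6. With calls that also reach 1.5-fold, 0 were called on day 6 and 3 in the difference between days. With only those reporters kept that were above the blank level in all 16 signals, which leaves 4 genes, 1 was called on day 6, 3 in the difference between days and 2 in Q0990 x bdl with age. Of the 9657 features then tested, 52% were called on day 6, 53.2% in the difference between days and 31.1% in Q0990 x bdl with age. Without a filter, 4 were called in Q0990 x Col-0 with age. With 1 array left out, the number called was 3 to 5 on day 3, 0 to 3 on day 6, 5 to 6 in the difference between days, 0 to 1 in Q0990 x Col-0 and 2 to 4 in Q0990 x bdl. The share of all features called was then 33.9% to 41.3% on day 3 and 23.1% to 36.2% on day 6. It was 32.8% to 39.4% in the difference between days. With age it was 18% to 26.9% in Q0990 x Col-0 and 24% to 31.4% in Q0990 x bdl. With a replicate block, 4 genes were called on day 3 (ZPR3 added, adjusted p = 0.0111), against 35% of all features. On day 6, 3 were called, against 27.1%, and in the difference between days 5, against 34.1%. With age 0 were called in Q0990 x Col-0, against 34.9%, and 4 in Q0990 x bdl, against 39.3%. Whether a replicate number links arrays across days was not tested.

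The age change of REV in Q0990 x Col-0, 0.02 in the report, was -0.02 without an offset, -0.01 with an offset of 16, -0.22 with the strictest filter, -0.01 with normalization on reporters that have values on all 8 arrays, 0 with quantile normalization, -0.06 with median scaling and -0.38 to 0.30 with 1 array left out. That of ZPR3 in Q0990 x Col-0 was -0.06 to 0.29 with 1 array left out. That of ATHB8 in Q0990 x bdl was 0.30 without a filter and -0.23 to 0.12 with 1 array left out. ZPR1 on day 6 was -0.02 (without day 6 replicate 3) to 0.38 with 1 array left out. The normalization on reporters with values on all 8 arrays and the array sides in the comparison of ages were chosen after seeing the data. In every comparison the sides themselves were read from the values. Where no cause is named, the cause was not tested. Over all features, 8035 were called on day 3 and 6942 on day 6, against 5234 on day 3 with each day fitted alone and 4546 or 4513 on day 6 without its replicate 1 or 3. The strictest filter left 9657 features tested, so counts and shares are both given. It gave 5053 on day 3 (52.3% of features, against 42% in the report). In the difference between days it gave 5140 in place of 7770 (53.2% against 41.2%). With age it gave 2343 in place of 5050 in Q0990 x Col-0 (24.3% against 26.8%). In Q0990 x bdl it gave 3006 in place of 6000 (31.1% against 31.8%). Of 460 counts over a partner list, 410 stayed within 1.5 times. With the array sides, 5 of the small RNA list were called on each day, in place of 3 and 1.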

Other observations

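Among the partner genes, several changed with age in both crosses. The MIR166b reporter rose at least 5.77-fold in Q0990 x bdl (adjusted p = 0.000518), where no day 3 signal was above the blank level, and by a log2 value of 3.21 in Q0990 x Col-0 (adjusted p = 0.000386), where 1 of 4 did. The cotyledon and apex genes DRNL and DRN fell 10.1-fold and 7.86-fold in Q0990 x Col-0 and 5.57-fold and 4.62-fold in Q0990 x bdl, and AS1, a leaf polarity gene, rose 3.17-fold and 4.93-fold. On day 6, 1 of 4 DRN signals of each cross was above the blank level. The abaxial auxin response factor gene ARF3 fell 5.09-fold in Q0990 x Col-0 and 4.52-fold in Q0990 x bdl, while FIL rose 3.93-fold and 10.9-fold. Of the HD-ZIP II genes, HAT14 rose 2.71-fold and 3.17-fold, and HAT22 fell 2.85-fold and 4.80-fold. Both crosses share arrays, so these are values side by side.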
